A study of Malus domestica with 6 samples.

Results

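Transcript levels of 3 apple genes, out of the 46558 listed in the deposited tables, were followed in stored Fuji fruit. They were ACS1 (MD15G1302200, an ACC synthase), ACO1 (MD10G1328100, an ACC oxidase) and PG1 (MD10G1179100, a polygalacturonase). They were taken by identifier, with the names that apple work gives to these identifiers. The deposited tables hold identifiers only, so the names could not be checked against them.

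Fruit was vacuum-treated for 5 min in EGCG (epigallocatechin-3-gallate, a catechin of tea) at 5 µmol per litre or, as the control, in water, with 30 apples in each treatment. After 10 days of storage the pericarp of 3 apples per treatment was sequenced, which makes each library 1 apple if the design text is followed. All 6 libraries carry the genotype label WT and the cell type label epidermal cell, and controls are also titled WT. The control liquid is ddH2O in the design text but ddH2O2 in the treatment label, so every difference below would be against another liquid if that label were right. The stated purpose was to learn how EGCG affects skin greasiness and the keeping quality of the fruit. Cell type markers could not be looked up without gene names.

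Apple is a climacteric fruit, whose ripening is driven by a rise in the gas ethylene. ACC synthase turns S-adenosylmethionine into ACC, usually the limiting step, and ACC oxidase turns ACC into ethylene. Ethylene in turn raises the transcripts of both enzymes in ripening fruit, and of wall-degrading enzymes such as polygalacturonase, which cuts the pectin that holds cells together. In apple, ACS1 and ACO1 are the ripening-related members of their families, PG1 is known for its part in the softening of the flesh, and Fuji is known as a cultivar of low ethylene output and slow softening.

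The libraries held between 17564402 and 19549798 counts, with at least 1 count in 30362 to 30982 genes. CPM stands for counts scaled to the library's total after that total was adjusted between libraries by the TMM method. On the first principal component of log2 CPM, with 40.04% of the variance, EGCG replicate 3 (9.18) lay beside control replicate 2 (11.2). EGCG replicates 1 and 2 lay at -41.5 and -58.7, and control replicates 1 and 3 at 33.2 and 46.6. Control replicate 2 stood apart on the second component. Results are therefore also given with single libraries left out. In whole tissue, fewer cells of a type and less RNA per cell cannot be told apart.

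The 3 genes lay at very different levels. Levels are compared between genes in FPKM, the authors' deposited values, which are scaled to the gene's length and to the library's total. ACO1 was among the most abundant transcripts of the tissue, ACS1 was abundant but far lower, and PG1 stood below 5 FPKM in 5 of the 6 apples. The median FPKM over the 6 libraries was 10863 for ACO1, 92.6 for ACS1 and 2.37 for PG1. Among the 31005 genes with a median above 0, whose own median was 4.07, 4 lay higher than ACO1, 974 higher than ACS1 and 18525 higher than PG1.

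**Figure D1:**
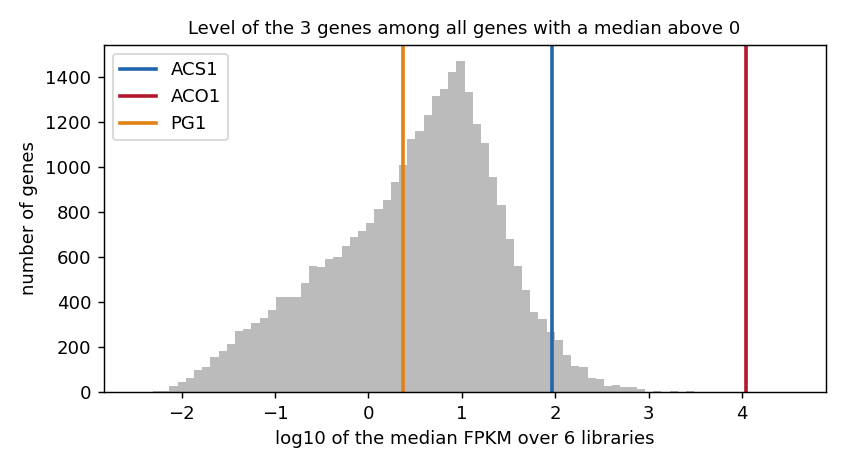
Histogram of genes (vertical axis, number of genes) by the log10 of their median FPKM over 6 libraries (horizontal axis), for the 31005 genes with a median above 0. Vertical lines mark PG1 (2.37 FPKM), ACS1 (92.6 FPKM) and ACO1 (10863 FPKM), which lie below the peak of the distribution, in its upper tail and at its far end.

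ACS1, the enzyme gene for the first committed step, stood at 86.7, 135.7 and 98.4 FPKM in EGCG replicates 1, 2 and 3. In control replicates 1, 2 and 3 it stood at 86.8, 61.8 and 122.6 FPKM. The groups overlapped: EGCG replicate 2 was highest, control replicate 3 was second, and EGCG replicate 1 and control replicate 1 were nearly equal. The span from lowest to highest apple was 2.20-fold. These values rest on 2224 to 5108 counts per library. The 95% counting intervals of EGCG replicate 1 (83.7 to 89.7 FPKM) and control replicate 1 (83.8 to 89.8 FPKM) cover each other, whereas those of the highest and lowest library are far apart. Counting intervals here are exact Poisson intervals, and they cover counting error only. They take each count as an independent molecule, which was not checked, since the reads carried no molecular identifiers that would mark independent molecules. By FPKM, ACS1 ranked between 591st and 1633rd of all listed genes, depending on the apple.

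ACO1, which makes ethylene from ACC, stood at 15589, 15515 and 9877 FPKM in EGCG replicates 1, 2 and 3. In control replicates 1, 2 and 3 the levels were 6639, 8535 and 11849 FPKM. EGCG replicates 1 and 2 were nearly equal and highest, control replicate 3 came next, above EGCG replicate 3, and control replicate 1 was lowest, so the groups overlapped in 1 of 9 pairs of apples. The rank of ACO1 in a library was nonetheless between 4 and 6. It took between 0.819% and 1.92% of all counts of a library, or 155598 to 364058 counts, so counting error was negligible beside the 2.35-fold span between apples.

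PG1, the pectin-cutting enzyme gene, stood at 2.47, 37.8 and 4.88 FPKM in EGCG replicates 1, 2 and 3. In control replicates 1, 2 and 3 it stood at 0.535, 2.27 and 1.87 FPKM. All 3 EGCG values lay above all 3 control values, but EGCG replicate 1 exceeded control replicate 2 only 1.09-fold, while EGCG replicate 2 stood alone. That apple was 7.74-fold above EGCG replicate 3 and 16.7-fold above the highest control. The counts behind these values were 82, 1274 and 169 after EGCG and 18, 73 and 58 in controls, so EGCG replicate 2 held 76.1% of all 1674 counts of the gene. At this depth the counting interval of EGCG replicate 1 (1.97 to 3.07 FPKM) overlaps those of control replicates 2 (1.78 to 2.85 FPKM) and 3 (1.42 to 2.41 FPKM). The separation of the groups there was not resolved. The intervals of EGCG replicate 2 (35.8 to 40.0 FPKM), EGCG replicate 3 (4.18 to 5.68 FPKM) and control replicate 1 (0.317 to 0.846 FPKM) lie clear of all others. In rank among all listed genes, PG1 ran from 24630th in control replicate 1 to 2723rd in EGCG replicate 2.

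**Figure D2:**
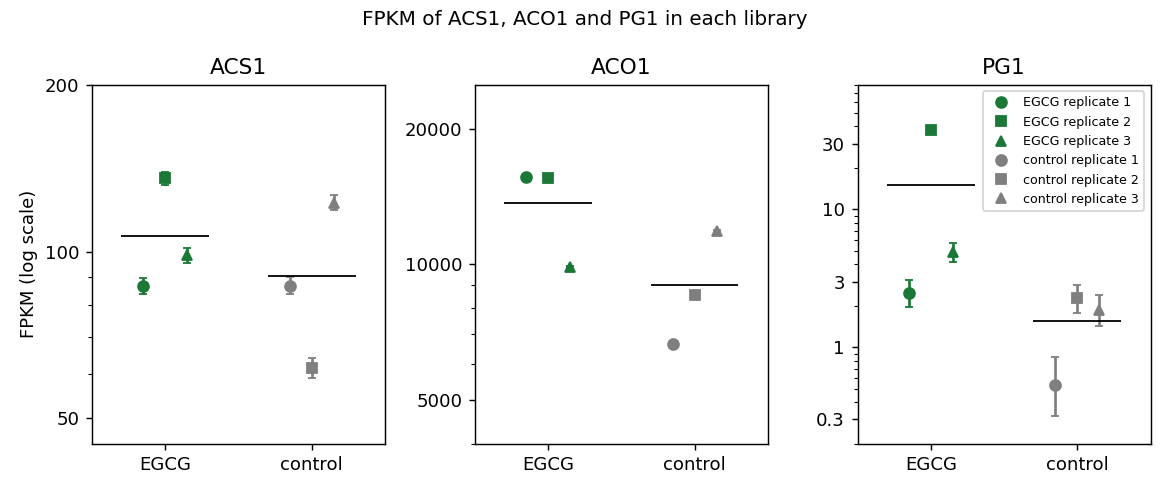
FPKM (vertical axes, log scale, a different range in each panel) of ACS1, ACO1 and PG1 in the 3 EGCG and 3 control libraries. Symbols are single apples with 95% Poisson counting intervals, and horizontal lines are group means. The groups overlap in ACS1 and ACO1, and in PG1 EGCG replicate 2 (37.8 FPKM) stands far above the other 5 apples (0.535 to 4.88 FPKM).

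All 3 genes varied more between apples of the same treatment than most genes of their level. The spread was measured as the SD of log2 CPM within groups, pooled over both groups. It was 0.43 for ACS1 and 0.43 for ACO1, and 1.64 for PG1. Each gene was set among the 6240 genes of its own expression bin, with 4 bins of equal size over the 24960 genes with enough counts to test. In the highest bin, where the median SD was 0.13, 94.9% of genes had a smaller SD than ACS1 and 94.8% a smaller SD than ACO1. In the next bin, where the median SD was 0.15, 99.6% of genes had a smaller SD than PG1. The fitted mean that put PG1 in this bin is raised by EGCG replicate 2. With bins by the median log2 CPM of the 6 libraries instead, chosen after the values were seen, PG1 lay in a lower bin with a median SD of 0.23, where 99.6% of genes had a smaller SD. Over all tested genes, 122 had a larger SD than PG1. The biological coefficient of variation fitted by edgeR was 23.9% for ACS1, 23.8% for ACO1 and 76.3% for PG1, where the trend at their fitted means lay at 15.6%, 16.8% and 17.3%. These figures describe 6 apples and were given no test.

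**Figure D3:**
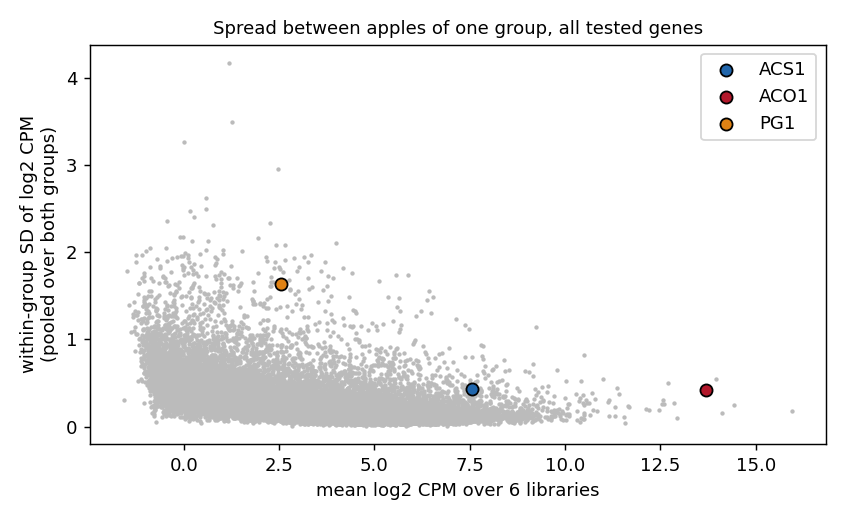
Within-group SD of log2 CPM, pooled over both groups (vertical axis), against mean log2 CPM over 6 libraries (horizontal axis) for all 24960 tested genes, in grey. ACS1 (SD 0.43), ACO1 (SD 0.43) and PG1 (SD 1.64) lie above most genes of like level.

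The comparison of EGCG with control fruit asked whether the treatment went with a change in these transcripts. Fitted levels of all 3 were higher after EGCG, by 1.20-fold for ACS1, 1.54-fold for ACO1 and 9.92-fold for PG1, but by the quasi-likelihood test of edgeR none of the 3 passed an adjusted p of 0.05. DESeq2 and limma-voom also called 0 of the 3, and 1 of them, PG1, had an unadjusted p under 0.05 in edgeR. The unadjusted p depended on the method: for PG1 it was 0.0706 in edgeR with robust empirical Bayes, chosen after the values were seen, 0.113 in limma-voom and 0.00593 in DESeq2, and for ACO1 it was 0.00802 in DESeq2 and 0.0496 in limma-voom. Of all 24960 tested genes edgeR called 0%, with 8.71% at an unadjusted p under 0.05, limma-voom called 0 genes and DESeq2 called 0.943% of its 27893 genes. Among all tested genes, 49.7% had a higher fitted level after EGCG, and the median log2 fold change was -0.0017. All 3 genes passed the filter on low counts.

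ACS1 averaged 106.9 ± 25.6 FPKM (SD, n = 3) after EGCG and 90.4 ± 30.6 FPKM (SD, n = 3) in controls. The fitted log2 difference was 0.26 (standard error 0.27) with a 95% interval from -0.35 to 0.88, which runs from 0.786-fold to 1.84-fold. Its adjusted p in edgeR was 0.805 (unadjusted 0.348). In CPM, scaled between libraries, an EGCG apple exceeded a control apple in 7 of 9 pairs. The exact permutation test of mean log2 CPM gave a two-sided p of 0.4, where 3 apples per group cannot give less than 0.1. The difference was thus smaller than the spread between apples, while the interval still allows a change of 1.84-fold.

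ACO1 averaged 13660 ± 3277 FPKM (SD, n = 3) after EGCG and 9008 ± 2637 FPKM (SD, n = 3) in controls. The fitted log2 difference was 0.62 (standard error 0.31) with a 95% interval from -0.09 to 1.34, or 0.939-fold to 2.53-fold. The adjusted p in edgeR was 0.615 (unadjusted 0.0789), and the exact permutation test gave a two-sided p of 0.2. In CPM an EGCG apple exceeded a control apple in 8 of 9 pairs. In 91.1% of tested genes the absolute log2 fold change was at most that of ACO1.

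PG1 averaged 15.1 ± 19.7 FPKM (SD, n = 3) after EGCG and 1.56 ± 0.906 FPKM (SD, n = 3) in controls, so the SD after EGCG exceeded the mean. The log2 fold change of 3.31 had a standard error of 1.05 and an unadjusted 95% interval from 0.89 to 5.73, or 1.85-fold to 53.2-fold. The adjusted p in edgeR was 0.461 (unadjusted 0.0137). The plain difference of mean log2 CPM was smaller, at 2.51. Its exact permutation test gave a two-sided p of 0.1, the lower limit of that test here. Groups that did not overlap, with EGCG higher, were found in 7.47% of all tested genes, and a higher level with an unadjusted p under 0.05 in 4.33%, so PG1 shares both with many other genes. The size of the fitted change rests on 1 apple: without EGCG replicate 2 it was 2.37-fold, with a log2 fold change of 1.24 and an adjusted p in edgeR of 0.805. The other EGCG apples averaged 3.68 FPKM.

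**Figure D4:**
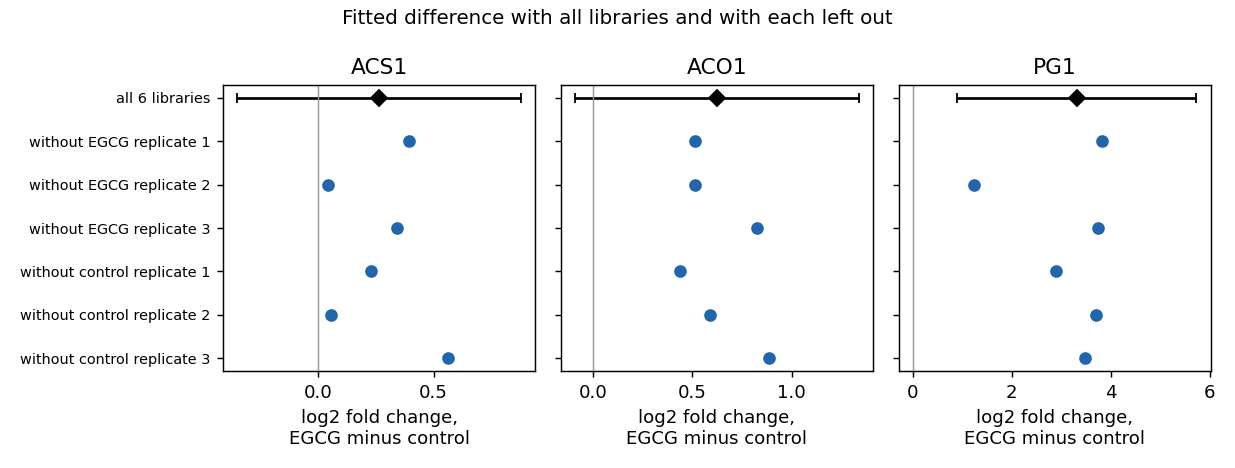
Log2 fold change, EGCG minus control, fitted by edgeR (horizontal axes, a different range in each panel) for ACS1, ACO1 and PG1, with all 6 libraries (black diamonds with 95% intervals) and with each library left out (blue points, no interval drawn). All points lie above 0, those of ACS1 come as near as 0.04, and PG1 drops from 3.31 to 1.24 without EGCG replicate 2.

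Transcripts of the 2 steps of ethylene synthesis were compared by the ratio of ACO1 to ACS1 in FPKM. This ratio covers the transcripts of 1 gene per step, not enzyme levels or ethylene. It was 179.9, 114.3 and 100.4 in EGCG replicates 1, 2 and 3 and 76.5, 138.2 and 96.7 in control replicates 1, 2 and 3. The groups overlapped, and the difference of 0.34 in mean log2 ratio gave a two-sided p of 0.4 in the exact permutation test. ACO1 thus exceeded ACS1 by 76.5-fold to 179.9-fold in every apple, with the lowest ratio in control replicate 1, where ACO1 was lowest, and the highest in EGCG replicate 1. The ratio of ACS1 to PG1 varied far more, from 3.59 in EGCG replicate 2 to 162.2 in control replicate 1. Its mean log2 was 3.77 after EGCG and 6.05 in controls (exact permutation test, two-sided p = 0.2).

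In log2 CPM, EGCG replicate 2 was the highest apple for all 3 genes, though barely above EGCG replicate 1 for ACO1. Control replicate 1 was the lowest for ACO1 and PG1. Across the 6 apples, Pearson's r of log2 CPM was 0.589 between ACS1 and ACO1, 0.584 between ACS1 and PG1, and 0.699 between ACO1 and PG1. Exact permutation tests gave two-sided p-values of 0.211, 0.208 and 0.106, each 0.211 after Benjamini-Hochberg adjustment over these 3 pairs. Spearman's rho was 0.771, 0.543 and 0.714 in the same order, with exact permutation p-values of 0.103, 0.297 and 0.136, or 0.204, 0.297 and 0.204 after adjustment. None of these relations passed the threshold. With the 2 apples farthest from the median of the first gene left out, r was 0.302 for ACS1 with ACO1 and 0.305 for ACS1 with PG1, in both cases without EGCG replicate 2 and control replicate 2. For ACO1 with PG1 it was -0.244 without control replicate 1 and EGCG replicate 2. The positive sign of that relation was thus not kept over the 4 apples left, which span a narrower range of ACO1. That choice of apples was close, as EGCG replicates 1 and 2 lay almost equally far from the ACO1 median (log2 CPM 14.254 and 14.259). With any 1 apple left out, r of ACO1 with PG1 stayed between 0.477 and 0.876. Without EGCG replicate 2 alone, r was 0.389 for ACS1 with ACO1, 0.0937 for ACS1 with PG1 and 0.572 for ACO1 with PG1. The r of ACS1 with PG1 thus depended most on that apple. With any other single apple left out, it was between 0.580 and 0.750. After each group's mean was subtracted, r was 0.483, 0.476 and 0.442 in the order above.

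**Figure D5:**
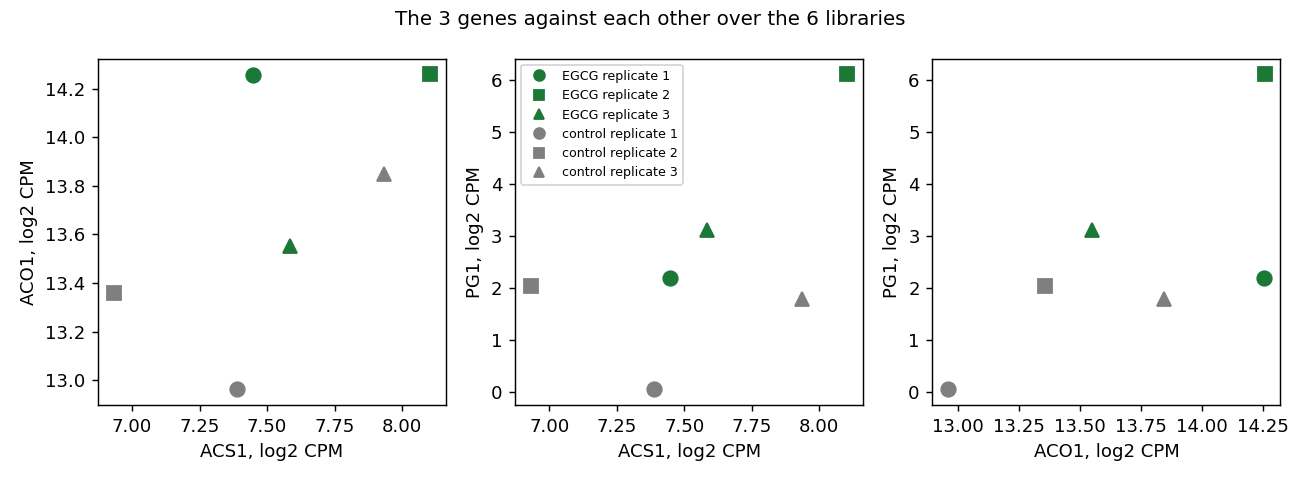
Log2 CPM of ACO1 against ACS1, PG1 against ACS1 and PG1 against ACO1 (axes as labelled) in the 6 libraries, with a symbol for each apple. EGCG replicate 2 lies at the upper right of each panel, and the other 5 apples show no tight line (r = 0.589, 0.584 and 0.699 over all 6).

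Many other genes followed each of the 3 more closely than the 3 followed each other. Of the other tested genes, 3230 (12.9%) had a higher r with ACS1 than ACO1 had, and 3302 (13.2%) a higher one than PG1 had. With ACO1, 3145 (12.6%) had a higher r than ACS1 had, and 1833 (7.34%) a higher one than PG1 had. With PG1, 3442 (13.8%) had a higher r than ACS1 had, and 1978 (7.9%) a higher one than ACO1 had. The tested gene most like ACS1 over the 6 libraries was MD12G1220200 (r = 0.992), the one most like ACO1 was MD10G1332800 (r = 0.997), and the one most like PG1 was MD08G1021000 (r = 0.996). The deposited tables give no names for them. All 3 had much smaller ranges than the gene they tracked: MD12G1220200 had 973 to 1183 counts per library, MD10G1332800 had 226 to 331 and MD08G1021000 had 179 to 329. An r of at least 0.95 was reached with ACS1 by 51 of 24957 other genes (0.204%), with ACO1 by 41 (0.164%) and with PG1 by 60 (0.240%). A negative r of at least that size was reached by more genes, namely 57, 65 and 71 in the same order. These likenesses are descriptions of the same libraries and carry no test.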

How the data were processed

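RNA-seq of 6 apple pericarp libraries, 3 per treatment, was used; groups and replicate numbers come from the sample titles. The first table holds raw counts per gene, as the authors deposited them. The second holds FPKM deposited by the authors; for the 3 genes each is the count over the library total and a length of 1978 (ACS1), 1233 (ACO1) and 1770 bases (PG1). Tools named without roles in the submitters' processing notes are HISAT2, fastp, DESeq2, HTSeq and R 3.2.0. Genome build, annotation and strand setting were not given in the sources used here. Reads of near-identical, overlapping or antisense genes may have been split, and no coordinates are printed. None of the identifiers (0 of 46558) matched the RefSeq gene table of assembly GDT2T_hap1 (51804 genes). Hence other ethylene or cell wall genes were not listed, and no sequences are shown.

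The genes were chosen with earlier results of these data known. Named besides them is the 1 tested gene most correlated with each, a rule set with the other choices. The test was edgeR 4.0.16 (glmQLFit, glmQLFTest, R 4.3.3) with TMM scaling, filterByExpr defaults, group as the only term and Benjamini-Hochberg adjustment over all 24960 tested genes (threshold 0.05). CPM and log2 CPM used the TMM-scaled library totals, and log2 CPM a prior count of 2. Standard errors and intervals follow from each fold change with its quasi-likelihood F. Exact permutation tests used scipy 1.17.1. Correlations were also taken on linear CPM, on log2 FPKM without a pseudocount and on log2 CPM of plain library totals, as planned. Alternatives were upper-quartile and RLE scaling, DESeq2 1.42.0, voom in limma 3.58.1 (limma-voom), no filter, a filter of at least 1 CPM in at least 3 libraries, the replicate number as a block, each library left out, and limma-trend on log2-transformed FPKM with a pseudocount of 1 or 0.1, which understates changes of low genes. Robust empirical Bayes, correlations with each library left out and bins by median level were added after the values were seen. The edgeR fit was also run on simulated counts with 200 changed genes, drawn at the spread fitted to each gene here. The outcome is not given, so these runs lend the results no weight.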

Additional observations from a re-analysis of the deposited data

How the results depend on the processing

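None of the 3 genes was called in any of the 17 alternatives, and each kept a positive log2 fold change in all 17; for PG1 the lack of overlap nearly fixes this. With each library left out, the log2 fold change ran from 0.04 to 0.56 for ACS1, from 0.44 to 0.88 for ACO1 and from 1.24 to 3.82 for PG1. The lowest values came without EGCG replicate 2 for ACS1 and PG1 and without control replicate 1 for ACO1. In the other alternatives it ran from 0.26 to 0.29 for ACS1, from 0.61 to 0.64 for ACO1 and from 1.93 to 3.32 for PG1. PG1 was lower with limma-voom (2.59) and with limma-trend on log2(FPKM + 1) (1.93) and log2(FPKM + 0.1) (2.45). The plain difference of its mean log2 CPM was 2.51, so values below the edgeR fit were not limited to FPKM with a pseudocount. Adjusted p-values over all alternatives ran from 0.719 to 0.992, from 0.282 to 0.921 and from 0.242 to 0.805. With the replicate number as a block, the log2 fold changes were 0.29, 0.64 and 2.69, with edgeR adjusted p-values of 0.843, 0.703 and 0.252. The unadjusted edgeR p of PG1 in that fit was 0.00168. Same-numbered libraries are known to share only a number. Their deviations correlated at -0.16, 0.13 and 0.16 across genes, and those of unlike-numbered libraries at -0.27 to 0.14. These values cannot settle whether the libraries were paired. The correlation of ACO1 with PG1 turned from 0.699 to -0.244 without control replicate 1 and EGCG replicate 2. EGCG replicate 1 lay almost as far from the ACO1 median as EGCG replicate 2, and r without it and control replicate 1 was not computed. The cause of the turn was not tested. With each library left out in turn, r ran from 0.389 to 0.784 for ACS1 with ACO1, from 0.0937 to 0.750 for ACS1 with PG1 and from 0.477 to 0.876 for ACO1 with PG1. On linear CPM, r was 0.599, 0.703 and 0.584 in the same order, so ACO1 with PG1 was no longer the highest. It was 0.548, 0.551 and 0.696 on log2 FPKM without a pseudocount, and 0.548, 0.555 and 0.691 on log2 CPM of plain library totals. Adjusted exact permutation p-values were 0.228 on linear CPM and 0.254 on both log2 scales. Depth limits PG1 most, with 18 counts in control replicate 1.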
